A study of Homo sapiens with 9 samples.

Results

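Aminoacyl-tRNA synthetases are the enzymes that join each amino acid to its transfer RNA. Their transcripts were followed in LAN-1 cells, an established human neuroblastoma line, on 9 arrays. The members were all genes with a synthetase symbol (a letter for the amino acid followed by ARS1, ARS2 or ARS3, with FARSA, FARSB and EPRS1) that had at least 1 probe set carrying a single gene symbol. There were 36 such genes among 18132 genes, measured by 91 of 44988 probe sets. Of these, 18 genes encoded cytosolic forms (52 probe sets), 16 mitochondrial forms (35 probe sets) and 2, GARS1 and KARS1, forms of both compartments from a single gene (4 probe sets). Synthetases outside this set were not analysed here.

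LAN-1 cells were spiked into tumor-free bone marrow, mononuclear cells were separated on a density gradient (Lymphoprep), and the tumor cells were recovered with magnetic beads through GD2, a ganglioside of their surface. There were 3 conditions with 3 arrays each. In the frozen arrays with gradient, the mononuclear cells were kept in 20% DMSO at -80°C for a week, thawed and passed through a further density gradient before the bead step. In the frozen arrays without gradient, the bead step followed thawing directly. In the fresh arrays, the bead step and lysis came without freezing. All samples thus hold the same cell line, spiked into marrow and enriched with beads, and with and without gradient here mean the arrays so labelled. Whether the labels of the frozen conditions were exchanged at deposit could not be settled from the sources used here. If they were, both names would trade places throughout and every difference between the frozen conditions would change sign, while the arrays' values and the fresh arrays would stay as they are. The replicates are named biological, but the labels do not say what separates them, so p-values measure the spread between these samples.

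From 100 ng of total RNA, 1 PrimeView array was hybridized per sample, and values are log2 signals of probe sets. Each gene was read by its most variable probe set over the 9 arrays. A gene was counted as risen or fallen past the criterion where its unadjusted p was under 0.05 and its log2 fold change beyond 1 in either direction, and p-values were adjusted over all 18132 genes. The arrays differed in how far labelling reached toward the 5' ends of transcripts. The GAPDH 3' minus 5' control difference, larger where the 5' end is poorly covered, was 6.73, 2.90 and 2.07 on the log2 scale in replicates 1 to 3 with gradient, 1.09, 1.45 and 0.94 in those without gradient and 4.92, 3.56 and 1.56 in the fresh arrays. Of 11 neuroblastoma markers, 10 were measured, and their summed linear signal was 9116 to 13750 with gradient, 16330 to 19930 without gradient and 11610 to 14770 in the fresh arrays. The summed signal of 10 granulocyte markers was 426 to 1622 with gradient, 239 to 634 without gradient and 1125 to 5166 in the fresh arrays. For 5 measured of 8 erythroid markers it was 934 to 1298 with gradient, 209 to 808 without gradient and 1921 to 6902 in the fresh arrays. In bulk RNA fewer cells of a type and less RNA per cell cannot be told apart. The part of 5' coverage and of other cells in the synthetase results was not tested beyond the values given with them.

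Each cytosolic synthetase serves translation by cytosolic ribosomes, and its mitochondrial counterpart, encoded by a separate nuclear gene in most cases, is imported to serve translation in mitochondria. In mammals, several cytosolic synthetases are held together in the multi-synthetase complex, whose measured members here were EPRS1, IARS1, KARS1, LARS1, MARS1, QARS1 and RARS1. Synthetases fall into class I and class II by the fold of their catalytic domain. Many cytosolic synthetase genes are targets of ATF4, the transcription factor of the amino acid response, which binds a composite C/EBP-ATF element in their promoters.

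A promoter window of 300 bases, 250 before to 50 after a transcription start, was held for 30 of the 36 genes in RefSeq sequence of GRCh38.p14, and none for AARS2, LARS1, TARS3, VARS1, VARS2 and YARS1. The ATF4 element core TGATGCAA, searched on both strands, was found in 6 of these 30 genes, all cytosolic. Some genes have several windows, and it was in 6 of the members' 39 windows (15.4%), against 0.866% of all 35116 windows. They are shown because they are the members whose promoters share this element, with the core in capitals, 8 bases on either side and each gene in its own direction of transcription.
AARS1, chr16:70289678-70289701, minus strand: tctcgcagTTGCATCAgccaagtt
CARS1, chr11:3057410-3057433, minus strand: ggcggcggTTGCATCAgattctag
IARS1, chr9:92293695-92293718, minus strand: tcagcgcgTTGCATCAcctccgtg
MARS1, chr12:57488056-57488079, plus strand: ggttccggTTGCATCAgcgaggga
NARS1, chr18:57621807-57621830, minus strand: acgctctcTGATGCAAcgccggaa
TARS1, chr5:33440959-33440982, plus strand: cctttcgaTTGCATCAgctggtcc
In AARS1 the core began 187 bases before the start. In the other 5 genes it lay close to the start, from 13 bases before it in IARS1 to 14 bases after it in NARS1. It stood as TGATGCAA in the direction of transcription in NARS1 and as its reverse complement in the other 5. A match is a description of letters and not of binding.

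HARS1 and HARS2, the cytosolic and mitochondrial histidyl-tRNA synthetase genes, stand head to head with 84 bases between their first bases, and their promoter windows overlap by 184 bases. The stretch from the first base of HARS1 to the first base of HARS2 is shown because both genes passed the criterion in the same comparison. Capitals mark 2 copies of CCGGAAGT, a core bound by ETS family factors, once on each strand.
HARS1 to HARS2, chr5:140691370-140691455, plus strand: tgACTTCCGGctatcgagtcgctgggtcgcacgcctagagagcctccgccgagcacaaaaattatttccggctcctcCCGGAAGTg
This core, searched on both strands, was in 8 of the 30 genes with a window and in 9 of their 39 windows (23.1%), against 4.14% of all windows.

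Array by array, most synthetases were high or low in the same arrays. Relative to each gene's mean over the 9 arrays, the 36 genes averaged -0.89, -0.10 and 0.20 in replicates 1 to 3 with gradient, 0.31, 0.36 and 0.53 in those without gradient, and -0.62, -0.09 and 0.31 in the fresh arrays. The 2 lowest arrays were replicate 1 with gradient and fresh replicate 1. Replicate 1 with gradient held the lowest of the 9 values for 19 genes and fresh replicate 1 for 14, whereas replicate 3 without gradient held the highest for 20. Within their own conditions, replicate 1 was lowest for 32 of 36 genes with gradient and for 33 of 36 in the fresh arrays. Over all 18132 genes the same averages stayed between -0.05 and 0.03. Quantile normalization gives every array the same distribution of signals, so these averages were held near 0 beforehand. They do not show that the array pattern is particular to the synthetases.

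**Figure D1:**
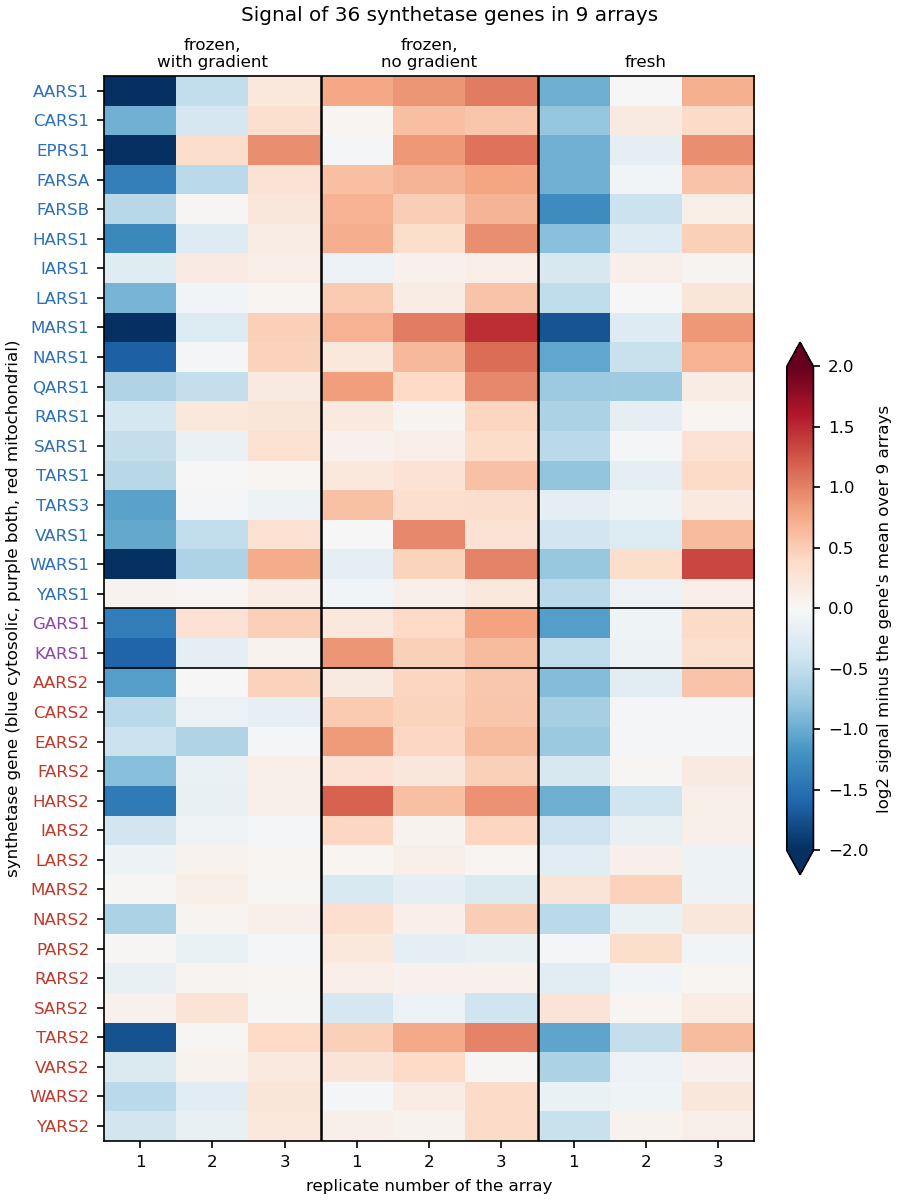
Log2 signal of each of the 36 synthetase genes (rows) minus its mean over 9 arrays, for 3 frozen arrays with gradient, 3 frozen arrays without gradient and 3 fresh arrays (columns, by replicate number). Replicate 1 with gradient and fresh replicate 1 are the 2 blue columns, averaging -0.89 and -0.62 over the genes, while MARS2 and SARS2 run against the other rows.

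In the arrays labelled as frozen and recovered without the further gradient, a label that may be exchanged as said above, 3 of 36 synthetase genes rose past the criterion against the fresh arrays and none fell. They were FARSB, the beta subunit of cytosolic phenylalanyl-tRNA synthetase, QARS1, the glutaminyl-tRNA synthetase of the complex, and the mitochondrial HARS2. Over all genes, 2.19% rose and 0.281% fell. Among the 10843 genes with a mean log2 signal of at least 5, 3.20% rose and 0.397% fell, beside 3 risen of 33 synthetases. In all, 33 of 36 synthetases had a positive log2 fold change, against 38.9% of all genes, and their median log2 fold change was 0.48, against -0.08 over all genes. No gene, synthetase or other, had an adjusted p under 0.05 in limma, and 8 synthetases had an unadjusted p under 0.05, 6 of them higher (6.93% of all genes) and 2 lower (6.49% of all genes). Of 10 measured neuroblastoma markers 2 rose in the same comparison, of 10 granulocyte markers 5 fell, of 5 erythroid markers 1 fell and of 6 monocyte markers 1 rose.

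FARSB had a log2 signal of 8.12, 8.69 and 8.91 in the frozen arrays with gradient, 9.37, 9.17 and 9.36 in those without gradient and 7.42, 8.24 and 8.80 in the fresh arrays (replicates 1 to 3 in this and the following). The 3 arrays without gradient lay close together and above every fresh array, and the lowest fresh value was in replicate 1. The log2 fold change was 1.15 (standard error 0.34, unadjusted p = 0.00808 and adjusted p = 0.29 from limma), and without fresh replicate 1 it was 0.78 and no longer past the criterion. Its partner subunit FARSA had 6.58, 7.40 and 8.23 in the frozen arrays with gradient, 8.55, 8.62 and 8.73 in those without gradient and 6.99, 7.89 and 8.52 in the fresh arrays. FARSA did not overlap between the conditions either, the arrays without gradient being higher than the fresh ones, but it was not past the criterion, at 0.84 (standard error 0.46). QARS1 had 4.68, 4.81 and 5.46 in the frozen arrays with gradient, 6.12, 5.69 and 6.25 in those without gradient and 4.56, 4.58 and 5.43 in the fresh arrays. Fresh replicates 1 and 2 were low and replicate 3 was nearer to the arrays without gradient, without reaching them. The log2 fold change of QARS1 was 1.17 (standard error 0.30, unadjusted p = 0.00416 and adjusted p = 0.29 from limma). HARS2 had 3.77, 5.04 and 5.30 in the frozen arrays with gradient, 6.36, 5.79 and 6.09 in those without gradient and 4.20, 4.78 and 5.30 in the fresh arrays. All arrays without gradient were above all fresh arrays, and the log2 fold change was 1.32 (standard error 0.42, unadjusted p = 0.0118 and adjusted p = 0.29 from limma). Its neighbour HARS1 had 4.995, 6.03 and 6.44 in the frozen arrays with gradient, 7.01, 6.64 and 7.21 in those without gradient and 5.46, 6.03 and 6.77 in the fresh arrays. Fresh replicate 3 lay within the range of the arrays without gradient, and the log2 fold change of HARS1 was 0.87 (standard error 0.42, unadjusted p = 0.0684 from limma).

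**Figure D2:**
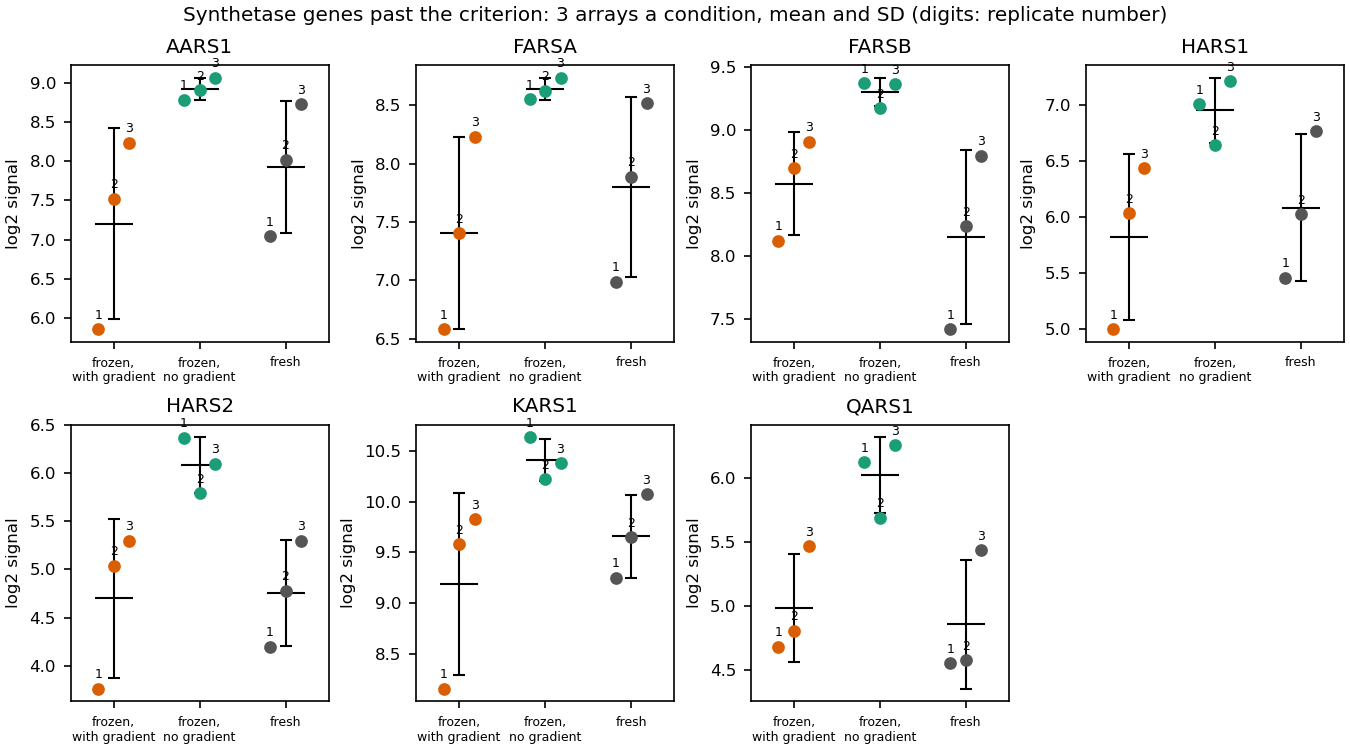
Log2 signal (vertical axis, own range for each gene) of the 7 synthetase genes past the criterion in any comparison, in 3 frozen arrays with gradient, 3 frozen arrays without gradient and 3 fresh arrays. Points are arrays with their replicate numbers, and bars are the mean and SD (n = 3). In all 7 genes, replicate 1 is the lowest of the arrays with gradient and of the fresh arrays, while the arrays without gradient lie close together at or near the top.

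The largest log2 fold change of the comparison belonged to MARS1, the methionyl-tRNA synthetase of the complex, at 1.43, but its standard error was 0.78 (unadjusted p = 0.101 from limma). MARS1 had 5.41, 7.44 and 8.19 in the frozen arrays with gradient, 8.40, 8.73 and 9.19 in those without gradient and 5.99, 7.46 and 8.57 in the fresh arrays. The fresh values were far apart, and fresh replicate 3 lay within the range of the arrays without gradient. The lowest log2 fold changes were those of MARS2 and SARS2, the mitochondrial methionyl- and seryl-tRNA synthetases, and of PARS2, the mitochondrial prolyl-tRNA synthetase. MARS2 had 8.49, 8.59 and 8.49 with gradient, 8.17, 8.28 and 8.19 without gradient and 8.72, 8.93 and 8.37 fresh. SARS2 had 5.04, 5.22 and 4.97 with gradient, 4.61, 4.83 and 4.55 without gradient and 5.20, 4.98 and 5.09 fresh. In both genes every array without gradient was lower than every fresh array, with log2 fold changes of -0.46 (standard error 0.16) for MARS2 and -0.43 (standard error 0.14) for SARS2, each short of the size the criterion asks for. The remaining probe sets of MARS2, dimmer on average, gave 0.13 and 0.26. That of SARS2, brighter on average, gave -0.03, so both lower values depended on the probe set. PARS2 had 3.55, 3.39 and 3.47 with gradient, 3.73, 3.34 and 3.37 without gradient and 3.47, 3.87 and 3.46 fresh, with overlapping conditions and a difference of -0.12 (standard error 0.17). IARS1, the isoleucyl-tRNA synthetase of the complex, had the next lowest value, 0.09 (standard error 0.18), with 11.66, 12.06 and 12.03 with gradient, 11.77, 11.98 and 12.02 without gradient and 11.57, 11.99 and 11.94 fresh. Its 9 values differed little and the conditions overlapped.

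Of the 36 genes, 12 did not overlap with the arrays without gradient above the fresh arrays, and 2 did not overlap with them below. Over all genes the shares were 11.8% above and 13.8% below. The 12 were AARS1, CARS2, EARS2, FARS2, FARSA, FARSB, HARS2, KARS1, QARS1, RARS1, RARS2 and TARS3. Among them, EARS2 and CARS2, the mitochondrial glutamyl- and cysteinyl-tRNA synthetases, had log2 fold changes of 0.91 (standard error 0.24) and 0.74 (standard error 0.21). Each was short of the size the criterion asks for. In EARS2 the remaining probe sets gave 0.81, 0.25 (the brightest on average) and 0.08. CARS2 was read at low log2 signals, from 3.25 to 4.46 over the arrays. Its remaining probe sets gave 0.18 and -0.24 (the brightest on average), so its rise depended on the probe set. TARS3, a cytosolic paralog of the threonyl-tRNA synthetase TARS1, had 4.14, 5.17 and 5.10 in the frozen arrays with gradient, 5.79, 5.55 and 5.56 in those without gradient and 5.02, 5.13 and 5.40 in the fresh arrays, and TARS1 had 10.01, 10.57 and 10.61 with gradient, 10.78, 10.86 and 11.16 without gradient and 9.77, 10.39 and 10.95 fresh. Both were higher on average without gradient than in the fresh arrays, by 0.45 (standard error 0.27) for TARS3 and 0.56 (standard error 0.30) for TARS1, neither past the criterion, and TARS1 overlapped through fresh replicate 3.

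The count of 3 became 0 when each gene was read by its brightest probe set on average or by the mean of all its probe sets, where 0.419% and 0.375% of all genes rose, and 6 with array weights, where 5.07% rose. It was 5 without replicate 1 with gradient, which acts through the shared spread, and 9 without fresh replicate 3, where 3.69% and 5.76% of all genes rose. With the GAPDH difference in the model no synthetase rose (0.199% of all genes), WARS1 fell (0.927% of all genes) and the median log2 fold change of the 36 genes was 0.03.

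Against the fresh arrays, those labelled as frozen and recovered with the further gradient, under the same doubt, showed no synthetase gene past the criterion in either direction, where 0.0386% of all genes rose and 0.0496% fell. No synthetase had an unadjusted p under 0.05 in limma, where 2.03% of all genes did so with a higher and 1.62% with a lower signal, and no gene had an adjusted p under 0.05. In no synthetase were the conditions free of overlap, where 3.82% of all genes lay wholly higher and 2.97% wholly lower with gradient. The log2 fold change was positive in 10 genes and negative in 26, with a median of -0.07 against 0.02 over all genes. Among the markers, 1 of 10 granulocyte and 1 of 5 erythroid genes fell.

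The lowest value was that of WARS1, the tryptophanyl-tRNA synthetase, which interferon induces in human cells. WARS1 had 2.98, 4.68 and 6.04 in the frozen arrays with gradient, 5.11, 5.75 and 6.29 in those without gradient and 4.54, 5.66 and 6.63 in the fresh arrays. Each of the frozen and fresh conditions spread widely, and the log2 fold change of -1.04 had a standard error of 0.77. The other probe sets of WARS1 gave -0.26, -0.11 and -0.04, so its low value rested on the most variable probe set. AARS1, the alanyl-tRNA synthetase, had 5.86, 7.52 and 8.23 in the frozen arrays with gradient, 8.78, 8.90 and 9.06 in those without gradient and 7.04, 8.02 and 8.72 in the fresh arrays, and a log2 fold change of -0.73 (standard error 0.59). EPRS1, which carries glutamyl- and prolyl-tRNA synthetase activities in 1 protein, had 7.08, 10.40 and 10.99 in the frozen arrays with gradient, 10.02, 10.92 and 11.15 in those without gradient and 9.09, 9.88 and 10.98 in the fresh arrays. Its replicate 1 with gradient lay far below the other arrays with gradient, and its log2 fold change was -0.49 (standard error 0.94). KARS1, the lysyl-tRNA synthetase of both compartments, had 8.16, 9.58 and 9.83 in the frozen arrays with gradient, 10.64, 10.22 and 10.38 in those without gradient and 9.25, 9.65 and 10.07 in the fresh arrays and -0.47 (standard error 0.41).

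At the other end of the comparison with gradient stood FARSB, with 0.42 (standard error 0.34), and RARS1, YARS1 and VARS2. RARS1, the arginyl-tRNA synthetase of the complex, had 9.14, 9.70 and 9.73 with gradient, 9.69, 9.55 and 9.92 without gradient and 8.86, 9.31 and 9.54 fresh, and a log2 fold change of 0.29 (standard error 0.23). YARS1, the cytosolic tyrosyl-tRNA synthetase, had 9.83, 9.80 and 9.91 with gradient, 9.70, 9.85 and 9.97 without gradient and 9.23, 9.65 and 9.89 fresh, and 0.26 (standard error 0.18). VARS2, the mitochondrial valyl-tRNA synthetase, had 6.01, 6.38 and 6.50 with gradient, 6.56, 6.70 and 6.32 without gradient and 5.67, 6.18 and 6.40 fresh, and 0.21 (standard error 0.22). In each of these genes fresh replicate 1 was the lowest array and the conditions overlapped. The count of 0 became 1 fallen without replicate 3 with gradient (0.805% of all genes fell). With the replicate number as a block it became 1, WARS1 having fallen by the same most variable probe set (0.0882% of all genes fell).

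Between the frozen conditions, 6 synthetase genes fell in the arrays labelled with the further gradient against those labelled without it and none rose, where 4.24% of all genes fell and 0.105% rose. This direction holds only if the labels do. Among genes with a mean log2 signal of at least 5, 6.48% fell and 0.138% rose. The 6 were the cytosolic AARS1, FARSA, HARS1 and QARS1, KARS1 of both compartments and the mitochondrial HARS2. The log2 fold change was positive in 3 of 36 genes, where 62.6% of all genes were positive, and the median was -0.70 against 0.15 over all genes. This comparison shares its arrays with both others, so its values are not separate evidence. No adjusted p was under 0.05 in limma, and 13 synthetases had an unadjusted p under 0.05, 12 of them lower (10.7% of all genes) and 1 higher (9.49% of all genes). Of 10 measured neuroblastoma markers 3 also fell, as did 1 of 6 monocyte markers.

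The log2 fold change with gradient against without was -1.71 in AARS1 (standard error 0.59), -1.38 in HARS2 (standard error 0.42), -1.23 in FARSA (standard error 0.46), -1.23 in KARS1 (standard error 0.41), -1.13 in HARS1 (standard error 0.42) and -1.04 in QARS1 (standard error 0.30). The adjusted p from limma was 0.244 in each. In these 6 genes every array with gradient was below every array without gradient, as the values above show. By the brightest probe set on average, HARS2 had -0.81, QARS1 -0.66, KARS1 -0.13 and HARS1 -0.06, none past the criterion. AARS1 and FARSA were read by that probe set already. The SD was larger with gradient in each of the 6, and was 1.22 against 0.14 without gradient in AARS1 and 0.42 against 0.30 without gradient in QARS1 (n = 3 each). MARS1 had the lowest log2 fold change, -1.76, but a standard error of 0.78 (unadjusted p = 0.0515 from limma). The highest were SARS2 with 0.41 (standard error 0.14) and MARS2 with 0.31 (standard error 0.16), both free of overlap with the arrays with gradient higher, followed by YARS1 at 0.00 and IARS1 at -0.01. By their remaining probe sets SARS2 had 0.04 and MARS2 -0.32 and -0.17. In all, 18 synthetases lay wholly lower with gradient and 2 wholly higher, against 15.7% and 19.9% of all genes.

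With the replicate number as a block, which paired these conditions, 11 synthetases fell with gradient, EPRS1, MARS1, NARS1, TARS2 and WARS1 being added, and the lowest adjusted p was 0.076. Calls grew over the whole array as well, to 6.99% of all genes fallen under the block. Of the added genes, NARS1 had 0.57, WARS1 -0.18 and MARS1 -1.17 by the brightest probe set on average, fitted without the block. EPRS1 and TARS2 were read by that probe set already, and their other probe sets gave -0.21 and -0.69. The count of 6 became 2 when genes were read by their brightest probe set on average, 3 with the mean of all probe sets (1.03% and 1.01% of all genes fell) and 0 with the GAPDH covariate (0.298% of all genes fell and 0.182% rose), where the median log2 fold change was 0.02. It was 3 without replicate 1 without gradient (2.28% of all genes), 3 without replicate 3 without gradient (2.47%), 1 without replicate 1 with gradient (1.03%) and 13 without replicate 3 with gradient (10.1%).

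Without replicate 1 with gradient, AARS1 alone stayed past the criterion, at -1.04, and the others had -0.91 in HARS2, -0.82 in FARSA, -0.72 in HARS1, -0.71 in KARS1 and -0.89 in QARS1. The calls of HARS1, KARS1 and QARS1 were also lost without replicate 1 without gradient (-1.11, -1.11 and -0.99), those of FARSA, HARS1 and QARS1 without replicate 3 without gradient (-1.18, -1.004 and -0.92), that of FARSA without replicate 2 without gradient (-1.24), and those of FARSA and QARS1 without replicate 2 with gradient (-1.23 and -0.95). AARS1 kept its call in all 9 fits that left out 1 array.

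**Figure D3:**
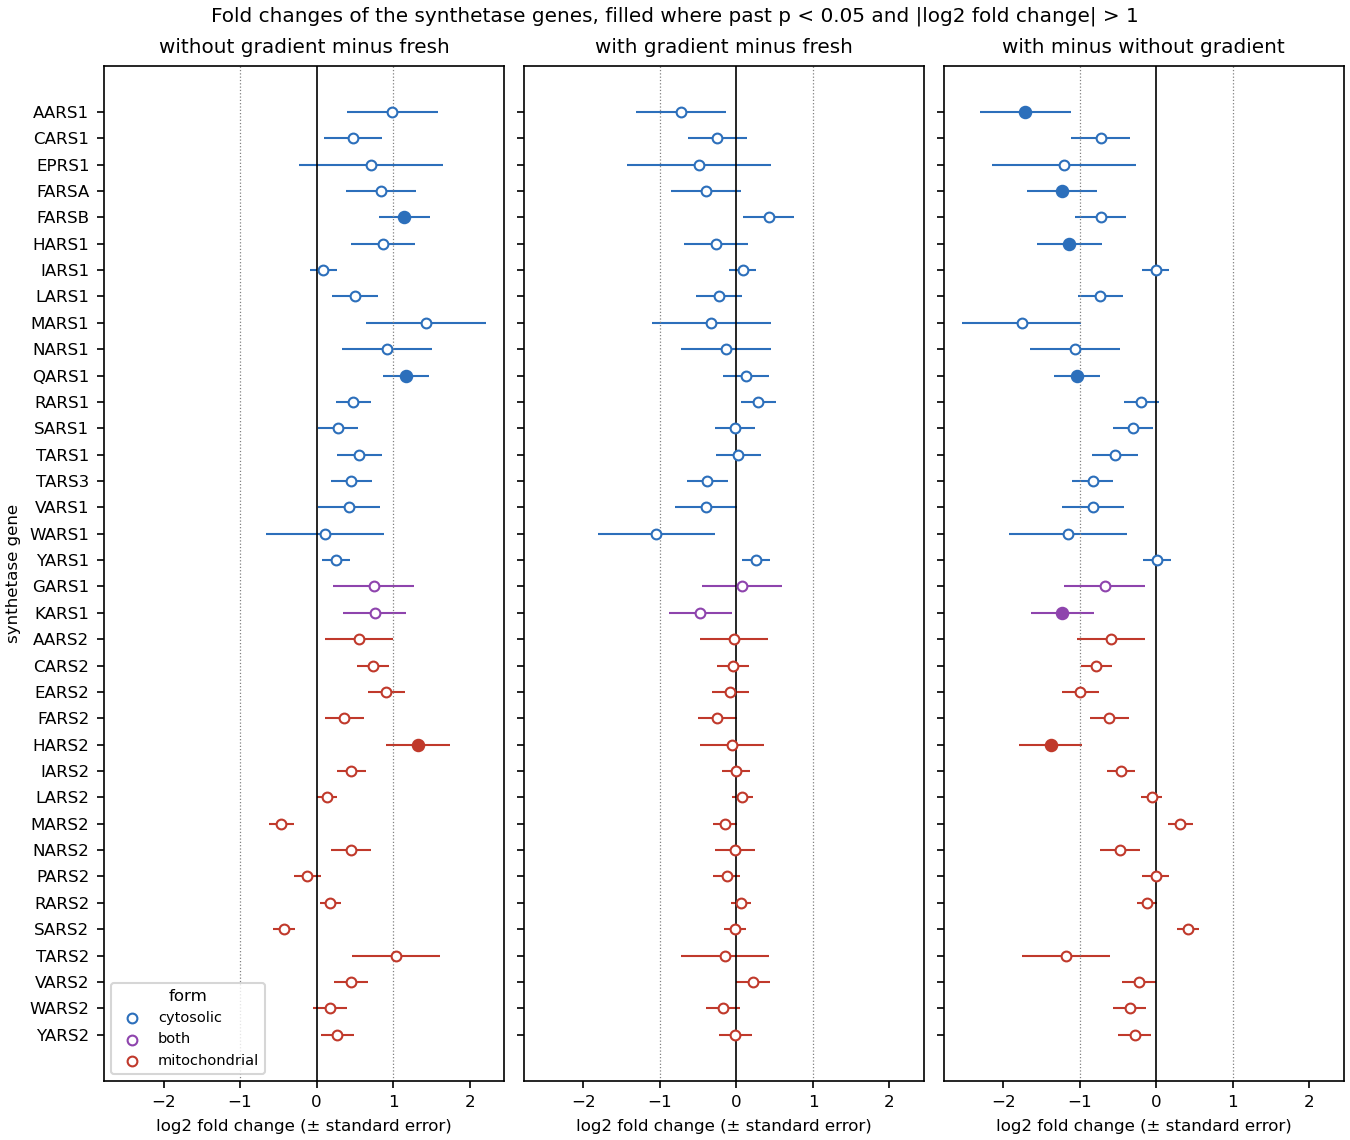
Log2 fold change (horizontal axis, with its standard error) of the 36 synthetase genes in the 3 comparisons, coloured by compartment and filled where past the criterion, with dotted lines at -1 and 1. In the left panel 33 genes lie right of 0, in the middle panel 10 lie right of 0, WARS1 lying furthest left, and in the right panel 33 lie left of 0.

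The cytosolic forms had median shifts further from 0 than the mitochondrial forms in all 3 comparisons. Without gradient against fresh, all 18 cytosolic genes had positive log2 fold changes, with a median of 0.53, and 2 rose past the criterion. Of 16 mitochondrial genes 13 were positive, with a median of 0.40, and 1 rose. The mean log2 fold change of the cytosolic genes minus that of the mitochondrial genes was 0.27. With gradient against fresh it was -0.14, with a median of -0.24 in the cytosolic genes, 12 of 18 of them negative, and of -0.04 in the mitochondrial genes, 13 of 16 of them negative. With gradient against without it was -0.42, the cytosolic median being -0.83 with 4 genes fallen and the mitochondrial median -0.41 with 1 fallen. No test was made of these differences, which rest on chosen members. With the GAPDH covariate the difference was -0.11 without gradient against fresh and 0.06 between the frozen conditions, so that its sign turned in both. By the brightest probe set on average it was 0.11 without gradient against fresh.

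By other groupings, the 7 members of the multi-synthetase complex had a median log2 fold change of 0.71 without gradient against fresh, with QARS1 alone past the criterion, and the 12 cytosolic genes outside it a median of 0.52, with FARSB alone past it, where 2.19% of all genes rose. With gradient against without, the medians were -1.04 in the complex, with KARS1 and QARS1 fallen, and -0.83 outside it, with AARS1, FARSA and HARS1 fallen, where 4.24% of all genes fell. The complex was not uniform, since IARS1 had 0.09 and -0.01 in these comparisons and MARS1 1.43 and -1.76. By catalytic class, 18 class I genes had a median of 0.44 and 17 class II genes one of 0.74 without gradient against fresh, and -0.41 and -0.73 between the frozen conditions, with EPRS1 in neither class. With the GAPDH covariate, medians without gradient against fresh were 0.04 in the complex and -0.02 outside it. Class I had 0.06 and class II 0.01. Between the frozen conditions these were -0.03, -0.04, 0.02 and -0.06 in that order. By the brightest probe set on average the order gave 0.44, 0.16, 0.21 and 0.28 without gradient against fresh. It gave -0.29, -0.26, -0.15 and -0.35 between the frozen conditions.

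The result for a gene depended on which of its probe sets was read. Of the 36 genes, 8 had 1 probe set and 28 had 2 to 5. In 12 of these 28 the probe sets had log2 fold changes of opposite sign without gradient against fresh, and also in 12 of 28 between the frozen conditions and in 13 of 28 with gradient against fresh. The median range within a gene was 0.46 without gradient against fresh, 0.60 between the frozen conditions and 0.25 with gradient against fresh. FARSB spanned most without gradient against fresh, its 5 probe sets giving 1.15, 0.91, 0.76, 0.11 and -0.34. For HARS1 they gave 1.03, 0.87 and -0.13, so a probe set that was not its most variable passed the criterion on its own. For NARS1, the cytosolic asparaginyl-tRNA synthetase, 2 probe sets gave 0.92 and 0.84 and the other 2 gave -0.20 and -0.48. For KARS1 the values were 0.76 and -0.03. By contrast, both probe sets of HARS2 (1.32 and 0.48), of QARS1 (1.17 and 0.55) and of AARS1 (0.99 and 0.69) were positive, and the 4 of IARS1 kept between -0.01 and 0.09.

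In 22 genes the most variable probe set was not the one with the highest mean signal. Over these 22 the median log2 fold change without gradient against fresh was 0.56 by the most variable and 0.07 by the highest mean, and between the frozen conditions -0.76 and -0.15. Taking each of the 91 probe sets on its own, 72 were positive without gradient against fresh and 4 rose past the criterion and none fell, against 1.38% and 0.144% of all probe sets. In the comparison of frozen conditions 7 fell and none rose, against 2.66% and 0.0622% of all probe sets. In both of these comparisons the most variable probe sets thus gave values further from 0, and signals of different probe sets are not comparable as levels.

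**Figure D4:**
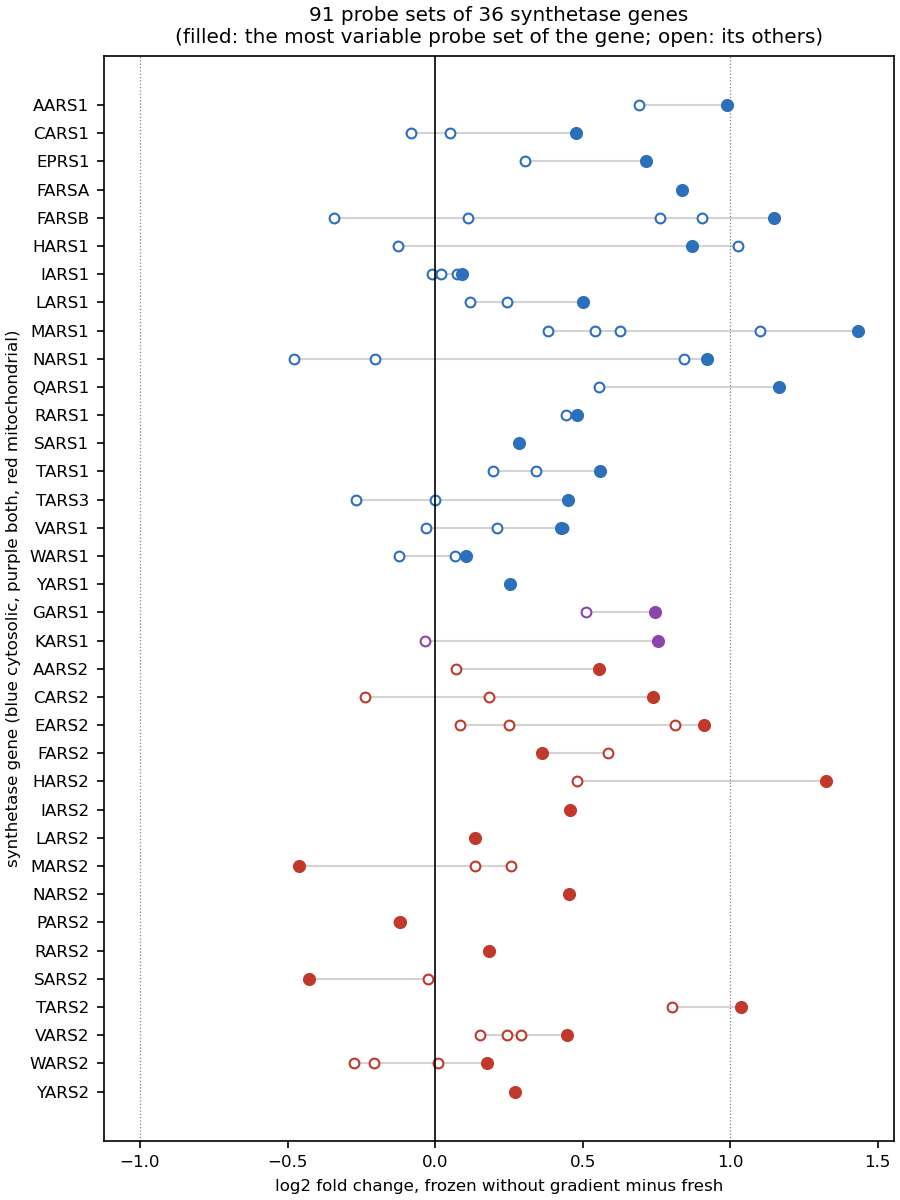
Log2 fold change, frozen without gradient minus fresh (horizontal axis), of all 91 probe sets by synthetase gene, filled for the most variable probe set and open for the others, coloured by compartment, with dotted lines at -1 and 1. The filled points sit mostly at the right end of their gene's range, and those of MARS2 and SARS2 at the left end.

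The synthetase signal was lower in the arrays with a larger GAPDH 3' minus 5' difference. The 3 arrays with the smallest differences, all without gradient, had cytosolic averages 0.32 to 0.70 above the 9-array means and mitochondrial averages 0.21 to 0.32 above them. Replicate 3 with gradient, with a difference of 2.07, also lay above, by 0.28 for cytosolic and 0.11 for mitochondrial genes, and so did fresh replicate 3, with a difference of 1.56, by 0.46 and 0.13. Replicate 1 with gradient and fresh replicate 1, with 6.73 and 4.92, had cytosolic averages of -1.15 and -0.77 and mitochondrial averages of -0.52 and -0.42. Conditions overlap on this axis only through the arrays with gradient and the fresh ones, since all arrays without gradient had smaller differences than all others. The condition labelled without gradient and the coverage of 5' ends can therefore not be told apart by these arrays alone.

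**Figure D5:**
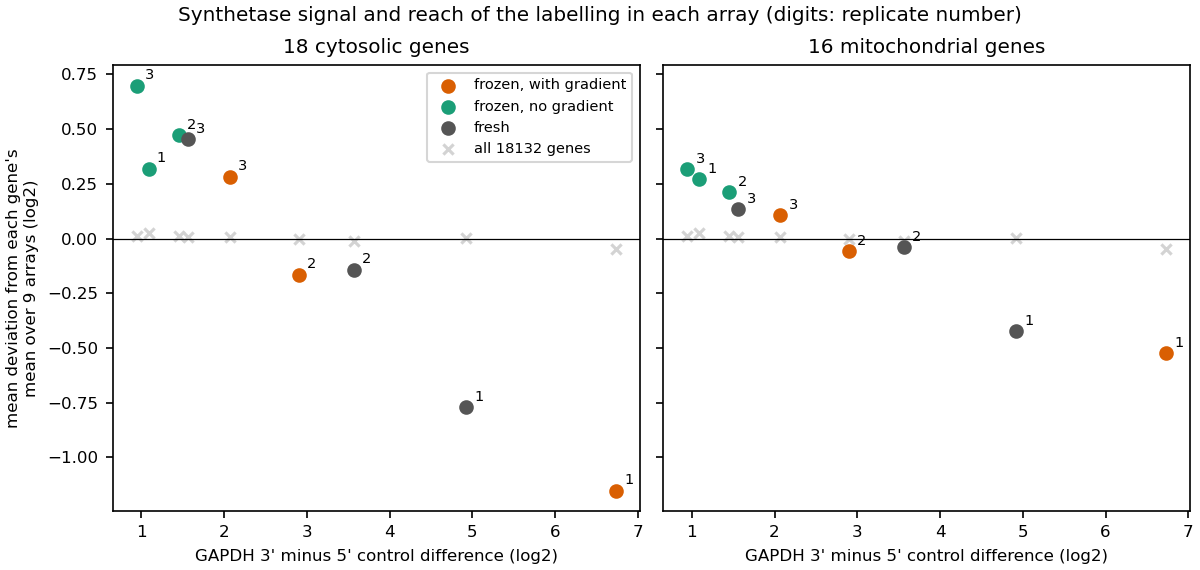
Mean deviation of 18 cytosolic (left) and 16 mitochondrial synthetase genes (right) from their means over 9 arrays (log2, vertical axis) against the GAPDH 3' minus 5' control difference of each array (log2, horizontal axis), coloured by condition, with replicate numbers. Grey crosses are all 18132 genes. The synthetase averages are above 0 in the 5 arrays with differences up to 2.07 and below 0 in the other 4. The crosses stay near 0, where quantile normalization holds them.

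Genes that work beside the synthetases gave the following counts, from lists drawn up with earlier results of these data known. Of 19 measured genes of tRNA ends, export and modification (of 20 listed), 2 rose without gradient against fresh, where 2.19% of all genes rose, and 4 fell with gradient against without, where 4.24% of all genes fell. NSUN2, a tRNA cytosine methyltransferase, had 4.63, 6.01 and 6.01 with gradient, 6.80, 6.31 and 7.03 without gradient and 4.56, 4.94 and 6.01 fresh, and RTCB, the tRNA ligase, had 5.48, 6.83 and 7.54 with gradient, 8.59, 8.11 and 8.32 without gradient and 6.09, 7.03 and 7.72 fresh. In both, every array without gradient was above every fresh array, with log2 fold changes of 1.54 (standard error 0.47) for NSUN2 and 1.39 (standard error 0.54) for RTCB. By the probe set with the highest mean these were -0.30 and -0.01. Against the cells without gradient, RTCB fell by 1.72 with gradient, TRMT1, a tRNA guanosine methyltransferase, by 1.27, NSUN2 by 1.16 and TSEN54, a subunit of the tRNA splicing endonuclease, by 1.16. For TRMT1 the arrays had 5.52, 6.56 and 7.22 with gradient, 7.54, 7.72 and 7.86 without gradient and 5.93, 6.92 and 7.54 fresh, and for TSEN54 7.23, 8.26 and 8.68 with gradient, 9.30, 9.15 and 9.19 without gradient and 7.74, 8.41 and 8.90 fresh. Without replicate 1 with gradient, RTCB alone of these 4 stayed past the criterion, at -1.15, and the others had -0.82 in TRMT1, -0.70 in NSUN2 and -0.74 in TSEN54. The calls of NSUN2 and TRMT1 were also lost without replicate 3 without gradient (-1.004 and -1.20), that of NSUN2 without replicate 1 without gradient (-1.12) and that of TRMT1 without replicate 2 without gradient (-1.27). The rise of RTCB lost its call without replicate 1 or 3 without gradient (1.27 and 1.40) and without fresh replicate 1 or 2 (0.96 and 1.44). The list's median was 0.25 without gradient against fresh, where all genes had -0.08, and -0.48 between the frozen conditions, where all genes had 0.15. With the GAPDH covariate the list's medians were -0.01 and -0.07. In that fit none of its genes passed the criterion in either comparison, where 0.199% of all genes rose and 0.298% fell in turn. By the brightest probe set on average the medians were -0.01 and -0.06.

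Of 4 measured genes of proofreading and selenocysteine synthesis (of 5 listed), only DTD1, a D-aminoacyl-tRNA deacylase, passed the criterion, at -2.15 (standard error 0.74) on the log2 scale with gradient against without. Without gradient against fresh DTD1 had 1.66, while DTD2, PSTK and SEPSECS had -0.65, -0.66 and -0.77. The list's median was -0.66 there, against -0.08 over all genes. Between the frozen conditions it was 0.48, against 0.15 over all genes. DTD1 had 4.29, 6.35 and 7.06 with gradient, 8.17, 7.84 and 8.14 without gradient and 5.20, 6.40 and 7.56 fresh, the arrays with gradient all lying below those without, and without replicate 1 with gradient its value of -1.34 was not past the criterion. By its probe set with the highest mean the value was -0.80, also not past the criterion. With the GAPDH covariate DTD1 had -0.46, again not past it. None of the 4 genes of mitochondrial tRNA charging and formylation passed in any comparison, nor did AIMP1, a scaffold of the complex and the only scaffold measured of 3 listed. The charging and formylation list had a median of -0.21 without gradient against fresh and of -0.07 between the frozen conditions. Of 28 genes of the amino acid response, none passed against fresh in either frozen condition, and the medians were -0.32 with gradient and 0.35 without gradient, against 0.02 and -0.08 over all genes. With gradient against without, DDIT4, a stress-induced inhibitor of mTORC1 signalling, fell by 1.16 and PYCR1, a proline synthesis enzyme, by 1.14, which is 2 of 28 genes beside 4.24% of all genes, and the median was -0.61 against 0.15 over all genes. DDIT4 had 7.74, 8.73 and 9.34 with gradient, 9.75, 9.40 and 10.15 without gradient and 8.61, 9.11 and 9.78 fresh, and PYCR1 had 6.44, 6.45 and 7.41 with gradient, 7.40, 8.06 and 8.27 without gradient and 6.30, 7.02 and 8.23 fresh, with all arrays with gradient below all without for DDIT4 and overlap for PYCR1 through replicate 3 with gradient. Without replicate 1 with gradient neither stayed past the criterion, at -0.73 in DDIT4 and -0.98 in PYCR1. PYCR1 had -0.63 by its probe set with the highest mean, also not past the criterion. The call of DDIT4 was also lost without replicate 1 or 3 without gradient (-1.17 and -0.97), and that of PYCR1 without replicate 2 or 3 without gradient (-1.07 and -0.96), replicate 2 with gradient (-0.98) or fresh replicate 2 (-1.14). With the GAPDH covariate the amino acid response medians were -0.18 without gradient against fresh and 0.07 between the frozen conditions. In that fit 3 of its 28 genes fell without gradient against fresh, beside 0.927% of all genes. None passed between the frozen conditions (0.298% of all genes fell), where DDIT4 had -0.25 and PYCR1 -0.38. By the brightest probe set on average the medians were 0.02 and -0.12.

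The 6 synthetase genes with the ATF4 core in their window had log2 fold changes from 0.09 in IARS1 to 1.43 in MARS1 without gradient against fresh, with a median of 0.74 and none past the criterion. The 8 other cytosolic genes with a window had 0.11 to 1.17, a median of 0.77 and 2 past the criterion. With gradient against without, the medians were -0.89 with the core, with AARS1 fallen, and -1.09 without it, with FARSA, HARS1 and QARS1 fallen. With gradient against fresh they were -0.19 and -0.14.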

How the data were processed

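RNA from 9 samples in 3 conditions was hybridized to PrimeView arrays. The authors deposited log2 probe set signals computed with RMA, which corrects background, normalizes arrays by quantiles and summarizes probes, and these were used as they are. The table held 49395 probe sets. Those that were controls (102) or carried several symbols (1832) or none (2473) in the platform annotation were left out, among them 4 with several symbols that list a synthetase, since their signal cannot be given to 1 gene.

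A limma model of 3 condition means (R 4.3.3, limma 3.58.1) was fitted to 18132 genes, each by its most variable probe set, with Benjamini-Hochberg adjustment over all of them. The criterion was an unadjusted p under 0.05 together with a log2 fold change beyond 1 in either direction. The number of arrays, 3 per condition, limits the precision. The fit was tried on simulated arrays with independent noise in each gene and known changes added. These held no shifts shared by the genes of an array and no choice among probe sets, so the fit was not tested under either. The members and lists were chosen with earlier results of these data known. Values in every array are given for members past the criterion, the 4 largest and 4 smallest log2 fold changes of each comparison and the pairs HARS1 and HARS2, TARS1 and TARS3, and for list members past the criterion.

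Replicate numbers are shared between conditions in the labels. Deviations of same-numbered arrays from their condition means correlated at 0.42, 0.21 and 0.50 between the frozen conditions. Against the fresh arrays replicate 2 did not pass 0.1. Alternatives were other choices of probe set, median centring, cyclic loess, a floor of 5 on the mean log2 signal, an intensity trend, array weights, a replicate block, the GAPDH covariate, a fit to only the arrays of the comparison, each array omitted in turn and both arrays of lowest GAPDH 5' signal omitted. Promoter windows came from RefSeq (GRCh38.p14).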

Additional observations from a re-analysis of the deposited data

Results flagged for a closer look

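For 6 synthetases, with conditions named as labelled, the log2 fold changes against fresh differed between the frozen conditions, as tested by the contrast of with against without gradient. The difference was -1.71 for AARS1 (-0.73 with gradient and 0.99 without gradient against fresh), -1.38 for HARS2 (-0.06 and 1.32 in that order), -1.23 for FARSA (-0.39 and 0.84), -1.23 for KARS1 (-0.47 and 0.76), -1.13 for HARS1 (-0.26 and 0.87) and -1.04 for QARS1 (0.13 and 1.17). Unadjusted p from limma ran from 0.00793 in QARS1 to 0.0253 in FARSA, and the adjusted p was 0.244 in each. All 6 lay between -0.54 and -0.22 once the GAPDH covariate was added, none of them past the criterion. Read by the brightest probe set on average, HARS2 had -0.81, QARS1 -0.66, KARS1 -0.13 and HARS1 -0.06, none past it, while AARS1 and FARSA kept their values.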

How the results depend on the processing

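The count of synthetases past the criterion without gradient against fresh, 3, became 0 with the brightest probe set on average, 0 with the mean of all probe sets, 6 with array weights (whose estimation stopped short of its tolerance), 5 with the replicate number as a block and 1, in the lower direction, with the GAPDH covariate. Leaving out 1 array gave 2, without fresh replicate 1, to 9, without fresh replicate 3. With gradient against fresh, 0 became 1 with the replicate block and was 0 to 1 with 1 array left out. Between the frozen conditions, 6 became 2 with the brightest probe set, 3 with the mean of all probe sets, 11 with the replicate block, 0 with the GAPDH covariate and 1 when both arrays of lowest GAPDH 5' signal were omitted, and leaving out 1 array gave 1 to 13. Other alternatives kept each count within 1.5 times.

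Same-numbered arrays without gradient and fresh correlated at 0.43, 0.04 and 0.55, and with gradient and fresh at 0.74, 0.01 and 0.80. Between the frozen conditions the values were 0.42, 0.21 and 0.50. Whether same-numbered arrays are paired is not settled by these values. The cytosolic minus mitochondrial mean, 0.27 without gradient against fresh, was 0.11 by the brightest probe set on average and 0.12 by the mean of all probe sets. Between arrays of a condition, the cytosolic minus mitochondrial mean signal had a pooled SD of 0.32. The difference of 0.27 was -0.11 with the GAPDH covariate and 0.12 to 0.46 with 1 array left out. With gradient against fresh the range was -0.33 to 0.08. Between the frozen conditions it was 0.056 with the covariate and -0.60 to -0.20 with 1 array left out.

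Read by the brightest probe set on average, 3 genes without gradient against fresh turned to -0.34 for FARSB, -0.30 for NSUN2 and -0.011 for RTCB. Of 360 values of single genes under the alternatives, 262 kept direction and call, 95 lost the call and these 3 reversed. HARS2 and QARS1 without gradient against fresh, and AARS1 between the frozen conditions, kept their calls in all 9 fits that left out 1 array, and FARSB lost its call, at 0.78, without fresh replicate 1. Cyclic loess moved the median of all genes between the frozen conditions to 0.00, against 0.15 as deposited, and 7 synthetases were then higher with gradient in place of 3. The causes were not tested. RMA had been applied before deposit, so background correction was not varied.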
